A study of Mus musculus with 27 samples.

Results

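The genes described here are Gm94, Fabp4 and Tubb3, which were present in mouse thyroid gland organoids (mTGOs) at day 5 of culture and nearly without counts at day 11, and 4 closely related genes, Fabp5, Tubb2a, Tubb2b and Tubb6, given for contrast. Gm94, Fabp4 and Tubb3 were chosen by their counts at day 5 and their loss by day 11 in these same libraries, so their differences between days are a description and carry no test. Together these were 7 genes of the 50559 in the count table. The organoids came from thyroid glands of C57BL/6 mice aged 8 to 12 weeks and were kept in Matrigel with EGF, FGF2, the ROCK inhibitor Y27632 and B27. Unirradiated organoids were collected at days 5, 7 and 11, and organoids exposed to photons at day 5 with 2, 4 or 7 Gy were collected at days 7 and 11, which gave 9 groups of 3 libraries and 27 libraries in all. No group carried a genetic change, every group received the same medium, and day 5 had unirradiated organoids only. The labels number the animals 1 to 3 in each group, while the series text speaks of 4 mice, and the columns carry 3 culture identifiers, mTG11, mTG12 and mTG14, by which the libraries are named below.

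Fatty acid binding proteins are small cytosolic carriers that hold long-chain fatty acids and other lipids and hand them to membranes, enzymes and nuclear receptors. Fabp4 encodes the adipocyte form, which is also made by capillary endothelium and macrophages, and Fabp5 encodes the epidermal form, which is abundant in stratified epithelium. The β-tubulins pair with α-tubulins to form microtubules, and they differ mostly in the acidic tail at the C terminus. Tubb3 encodes class III β-tubulin, widely used as a marker of neurons, and Tubb2a, Tubb2b and Tubb6 encode β-tubulins of classes II and V. Gm94 is a gene known by its model name, and no role is given for it here.

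Tubb3 and Tubb2a are shown as sequence because, of the β-tubulins described here, Tubb3 was nearly lost by day 11 and Tubb2a was not. Tubb3 lies on chromosome 8 from 124138163 to 124150092 on the plus strand of GRCm39, and Tubb2a on chromosome 13 from 34257549 to 34261998 (minus strand). Over the whole coding sequence (1353 bases in Tubb3 and 1338 in Tubb2a, GENCODE) they were 83.4% identical. The last 75 coding bases before the stop codon are given 5′ to 3′, with capitals for bases that differ from, or have no partner in, the other gene in the alignment of the coding sequences, 34 in Tubb3 and 19 in Tubb2a.
Tubb3 coding end: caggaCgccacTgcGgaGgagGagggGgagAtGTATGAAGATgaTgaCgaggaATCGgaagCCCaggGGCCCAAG
Tubb2a coding end: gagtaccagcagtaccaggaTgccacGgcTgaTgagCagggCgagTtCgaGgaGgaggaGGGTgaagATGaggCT
The promoters of both genes (250 bases before to 50 after the start, RefSeq, build GRCm38.p6) are shown 5′ to 3′ on the strand of the gene. Capitals mark matches to the 4 motifs searched on both strands, the TATA box TATAAA, the CCAAT box CCAAT, the GC box GGGCGG and the AP-1 site TGANTCA. No matches overlapped in these windows. Fabp4, Fabp5, Tubb2b and Gm94 had no entry in the promoter table, nor did Tubb6.
Tubb3 promoter, chr8:123411303-123411602, plus strand: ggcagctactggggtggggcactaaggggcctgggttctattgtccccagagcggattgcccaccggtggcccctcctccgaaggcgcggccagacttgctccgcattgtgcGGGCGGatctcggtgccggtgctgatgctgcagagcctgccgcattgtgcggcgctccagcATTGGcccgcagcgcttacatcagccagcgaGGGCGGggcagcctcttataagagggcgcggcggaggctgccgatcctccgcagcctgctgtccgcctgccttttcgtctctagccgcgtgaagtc
Tubb2a promoter, chr13:34077959-34078258, minus strand: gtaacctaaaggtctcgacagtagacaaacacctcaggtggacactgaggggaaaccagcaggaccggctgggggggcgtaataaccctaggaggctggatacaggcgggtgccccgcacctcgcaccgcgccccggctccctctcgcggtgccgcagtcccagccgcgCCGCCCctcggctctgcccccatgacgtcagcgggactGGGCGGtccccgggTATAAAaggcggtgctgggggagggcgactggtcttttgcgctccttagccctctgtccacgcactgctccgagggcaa
The Tubb3 window held a CCAAT box at -77 from the start and GC boxes at -138 and -46. The Tubb2a window held a TATA box at -29 and GC boxes at -81 and -43. Of 32851 promoters of the same length, 13.6% held the TATA box letters, 37.4% the CCAAT box, 35.7% the GC box and 7.81% the AP-1 site. The AP-1 letters were in neither window.

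RNA was sequenced with Smart3SEQ, which reads the 3′ ends of transcripts, and library totals ranged from 2528866 to 5723150 counts. Levels are given as CPM, counts scaled to a library total of 1000000, and 3 counts, taken as the least a library can show, stood for 0.524 to 1.19 CPM. These limits and the intervals below cover counting error only. Because 3′ ends are counted without a length correction, levels are compared within a gene and not between genes. All values come from whole organoids, in which fewer cells of a type and less RNA per cell cannot be told apart. Every nonzero value of Gm94 (20 libraries) and Fabp4 (23 libraries) was a whole number, as were 13 of 20 for Tubb3, whereas 1 of 27 values of Fabp5 and of Tubb2b, 2 of 27 of Tubb2a and 11 of 27 of Tubb6 were whole. How the fractions arose is not given in the sources used here. When 75-base windows over the last 500 bases of each transcript were compared with all other transcripts on both strands, 74.6% of those of Tubb2a also lay in Bphl and 100% of those of Tubb6 in Afg3l2, both on the opposite strand, and none of those of the other 5 genes lay elsewhere. Whether the counting used strand is not given in the sources used here, so the counts of Tubb2a and Tubb6 are uncertain in that respect.

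Gm94 lies on chromosome 18 from 43910253 to 43925943 (minus strand, GRCm39) and has 4 exons. At day 5 it stood at 241, 193 and 257 CPM in mTG11, mTG12 and mTG14, from 700, 508 and 901 counts. At day 7 without irradiation it stood at 27.4, 11.1 and 21.4 CPM, and at day 11 all 3 unirradiated libraries had 0 counts. The days did not overlap, and each step down was seen in every culture. The mean was 230 ± 33.2 CPM (SD of n = 3) at day 5 and 19.9 ± 8.20 CPM (SD of n = 3) at day 7, a ratio of summed counts per total of 11.7 (95% counting interval 10.2 to 13.4). Against the limit of 3 counts over the day 11 group, day 5 was at least 900-fold higher and day 7 at least 77.1-fold higher. The order of the 9 groups was day 5, then day 7 from 0 Gy down to 7 Gy, then day 11. Neighbours among the 4 day 7 groups overlapped in range, as did neighbours among the 4 day 11 groups, whereas the steps from day 5 to day 7 and from day 7 to day 11 were separate.

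Fabp4 lies on chromosome 3 from 10268785 to 10273737 (minus strand), and Fabp5 on the same chromosome from 10077602 to 10081674 on the plus strand, 187110 bases away. Their coding sequences were 59.6% identical. Fabp4 stood at 22.8, 35.4 and 41.9 CPM at day 5, in the same order of cultures, and at 9.38, 15.4 and 10.5 CPM at day 7 without irradiation. No unirradiated library at day 11 had a count. The mean fell from 33.3 ± 9.74 CPM (SD of n = 3) to 11.8 ± 3.18 CPM (SD of n = 3), with a day 5 to day 7 ratio of 2.88 (95% counting interval 2.35 to 3.56). Day 5 was at least 131-fold higher than day 11 and day 7 at least 45.3-fold higher. The ranges of days 5, 7 and 11 did not overlap.

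Fabp5 was lower at each later day as well, and it kept counts in every library. Day 5 libraries held 1350, 1934 and 2014 CPM, day 7 libraries 721, 923 and 752 CPM, and those of day 11 held 42.3, 113 and 57.4 CPM, without overlap between the days. Fabp5 and the related tubulins took no part in the choice, so their days were compared by the quasi-likelihood test of edgeR, with p-values adjusted over all genes of the fit. Of these 4 genes, 3 fell from day 5 to day 7, where 21.6% of the 18442 genes tested passed in either direction, and all 4 fell from day 5 to day 11 (41.3% of genes tested) and from day 7 to day 11 (21.2%). The log2 fold change of Fabp5 was -0.99 from day 5 to day 7 (SE, the standard error, 0.26, adjusted p = 0.0154), -3.51 from day 7 to day 11 (SE 0.29, adjusted p = 6.99e-06) and -4.50 from day 5 to day 11 (SE 0.30, adjusted p = 3.33e-07). The step from day 5 to day 7 no longer passed without mTG14 at day 5, mTG11 at day 7 or mTG14 at day 7, with adjusted p between 0.0524 and 0.0571, and passed without the other 3 libraries. Fabp5 fell 22.6-fold between days 5 and 11 in the fit, and the 3 chosen genes went to 0 or 1 count over the same interval.

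**Figure D1:**
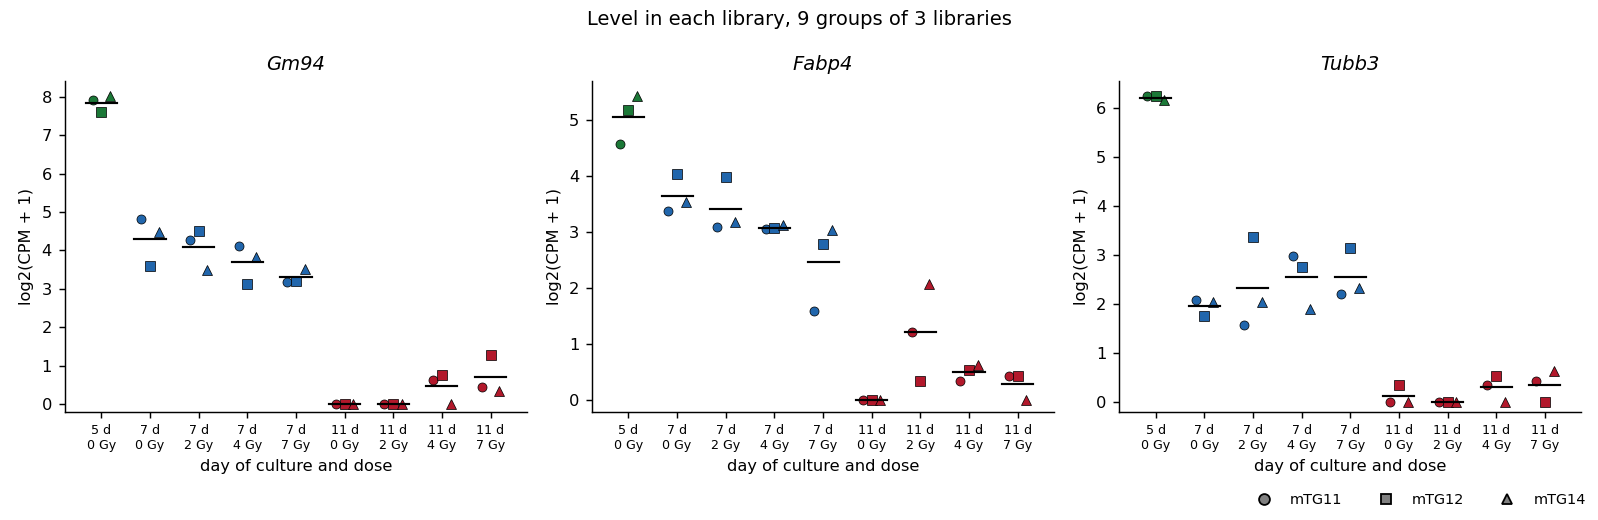
Level of Gm94, Fabp4 and Tubb3 as log2(CPM + 1) in each of 27 libraries, by day of culture and dose. Points are libraries, with shapes for the 3 cultures and colours for the days, and bars are the mean of the 3 log values. By group means all 3 genes were highest at day 5, intermediate at day 7 and at or near 0 at day 11. For Fabp4, mTG14 at day 11 after 2 Gy (3.20 CPM) lay above mTG11 at day 7 after 7 Gy (2.01 CPM).

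Tubb3 stood at 74.6, 74.7 and 70.7 CPM at day 5, the narrowest spread among the 3 chosen genes, and at 3.26, 2.39 and 3.09 CPM at day 7 without irradiation. At day 11 a single unirradiated library, mTG12, had 1 count. The mean was 73.3 ± 2.29 CPM (SD of n = 3) at day 5 and 2.91 ± 0.46 CPM (SD of n = 3) at day 7, a ratio of 24.7 (95% counting interval 17.5 to 36.0). The ratio of day 5 to day 11, from 661 counts against 1, was 846 (95% counting interval 151 to 33459). As a fraction of the day 5 level per total, 0.0404 of Tubb3, 0.0857 of Gm94 and 0.347 of Fabp4 was left at day 7. Among the counts of the 8 β-tubulin genes, Tubb3 took 5.38% ± 0.47 (SD of n = 3) on day 5, a share that was 0.356% ± 0.035 (SD of n = 3) on day 7 and 0.0169% ± 0.029 (SD of n = 3) on day 11.

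Tubb2a, Tubb2b and Tubb6 kept counts in all 27 libraries. Tubb2b lies 45246 bases from Tubb2a on chromosome 13, from 34307245 to 34315143 (minus strand), and their coding sequences were 96.5% identical. Tubb6 lies on chromosome 18 from 67523585 to 67536773 on the plus strand and was 85.7% identical with Tubb3. For Tubb2a the day 5 libraries held 66.2, 105 and 91.4 CPM, those of day 7 held 37.7, 35.3 and 36.8 CPM and those of day 11 held 21.2, 20.7 and 21.1 CPM, so the days did not overlap. The log2 fold change of Tubb2a was -1.10 from day 5 to day 7 (SE 0.14, edgeR adjusted p = 2.07e-04) and -0.80 from day 7 to day 11 (SE 0.15, edgeR adjusted p = 0.00251). For Tubb2b the values were 28.5, 50.7 and 42.3 CPM (day 5), 24.9, 22.2 and 19.0 CPM (day 7) and 9.10, 7.19 and 6.10 CPM (day 11), again in separate ranges. Its log2 fold change was -0.72 from day 5 to day 7 (edgeR adjusted p = 0.0152) and -1.56 from day 7 to day 11 (edgeR adjusted p = 3.59e-04). The first of these no longer passed without mTG12 or mTG14 at day 5 or mTG14 at day 7, with adjusted p between 0.0549 and 0.0672. Tubb6 stood at 51.8, 100 and 73.0 CPM at day 5 and at 50.1, 52.1 and 57.5 CPM at day 7, which overlapped, and its log2 fold change of -0.33 did not pass (SE 0.19, edgeR adjusted p = 0.262). At day 11 Tubb6 stood at 13.1, 17.2 and 9.90 CPM, all below the day 7 libraries, with a log2 fold change of -2.00 (SE 0.23, edgeR adjusted p = 7.57e-05).

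**Figure D2:**
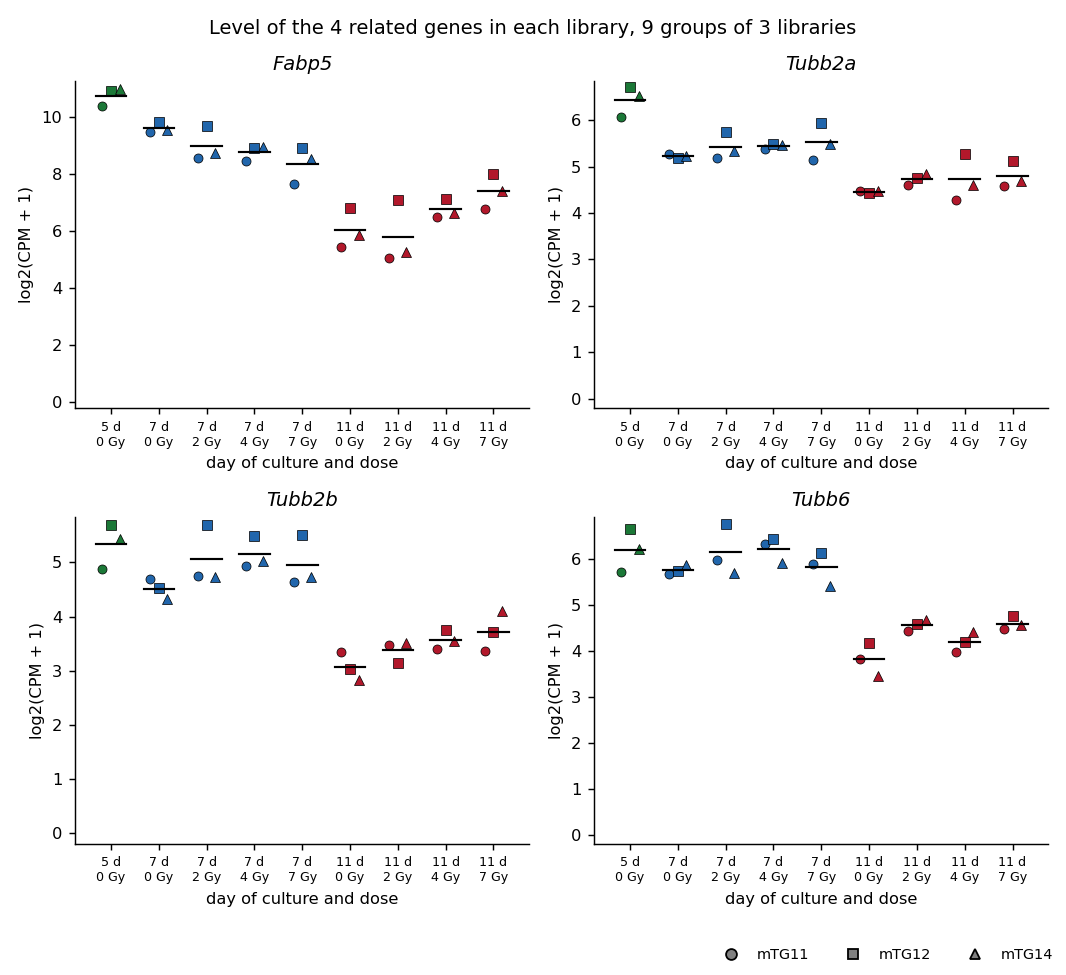
Level of Fabp5, Tubb2a, Tubb2b and Tubb6 as log2(CPM + 1) in each of 27 libraries, by day of culture and dose. Points are libraries, with shapes for the 3 cultures and colours for the days, and bars are the mean of the 3 log values. None of these genes reached 0, and all were lowest at day 11 by group means.

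Genes of the same pathways were taken from lists, which also hold Fabp5, Tubb2a, Tubb2b and Tubb6. The chosen genes were left out of comparisons between days. From day 5 to day 11 all 5 tested β-tubulins and all 5 tested α-tubulins fell, with a median log2 fold change of -1.91 and -1.50. Over all genes the median was 0.06, and 41.3% of genes passed. The 5 β-tubulins include Tubb2a, Tubb2b and Tubb6, described above, and the median of -1.91 was the value of Tubb2a. Tubb5, the main β-tubulin of dividing cells, fell by 1.31 on the log2 scale (edgeR adjusted p = 2.16e-07), Tubb4b by 0.77 (edgeR adjusted p = 1.34e-05) and Tuba1a, an α-tubulin of neurons and developing tissue, by 1.92 (edgeR adjusted p = 9.52e-07). Of 9 tested tubulin folding cofactors and stathmins, 3 fell and 1 rose. These included Stmn1, a microtubule destabilizer, with a log2 fold change of -1.56 (edgeR adjusted p = 1.02e-06), and Stmn2, its neuronal relative, which went from 6.28 to 0.550 CPM (edgeR adjusted p = 0.00564). Of 8 tested genes of the fatty acid and retinoid binding protein family, 4 fell, Fabp5 among them, and 1 rose. Rbp2, a cellular retinol binding protein, fell by 2.16 (edgeR adjusted p = 2.14e-06). Among 14 tested genes of fatty acid uptake and PPAR signalling, 2 rose and 2 fell. Acadl, a mitochondrial acyl-CoA dehydrogenase, rose by 1.23 (edgeR adjusted p = 4.09e-06), and the nuclear receptor genes Ppard and Rxra fell by 1.16 (edgeR adjusted p = 1.75e-06) and 0.73 (edgeR adjusted p = 3.63e-04).

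Markers of cell types known for Fabp4 or Tubb3 were read in the same libraries. Of 8 adipocyte markers, 7 had 0 counts at day 5, Adipoq and Plin1 among them, and the summed level ranged from 6.21 to 11.8 CPM at day 5, all of it Cidea, and from 1.07 to 2.48 CPM at day 11. Of 10 endothelial markers, 5 were at 0 at day 5, Pecam1, Tek and Tie1 among them, with a summed level of 7.18 to 7.65 CPM at day 5 and 1.91 to 4.83 CPM at day 11. Of 10 neuronal markers, 4 were at 0 at day 5, Rbfox3 and Syt1 among them, and the summed level, mostly Map2, went from 13.4 to 16.5 CPM at day 5 to 2.95 to 4.15 CPM at day 11. In each of these 3 lists 1 gene fell from day 5 to day 11 (Cidea, Egfl7 and Map2), of 1, 1 and 2 tested. The summed level of 8 macrophage markers was 5.52 to 23.0 CPM at day 5 and 38.1 to 65.5 CPM at day 11. Of 5 tested, 1 was higher (Cd68) and 2 were lower (Mrc1 and C1qb). By its mean Cd68 made up 6.29 CPM of that sum at day 5 and 44.8 CPM at day 11. Only Ptprc was at 0 at day 5, and Adgre1, C1qa, C1qb and Ptprc were at 0 at day 11. The 10 fibroblast markers summed to 36.5 to 126 CPM at day 5 and 10.0 to 79.5 CPM at day 11, and 6 of 10 fell. Of 6 C cell markers, 4 were at 0 at day 5. The part of these cells in the loss of Gm94, Fabp4 and Tubb3 was not tested. Of the thyroid markers, Foxe1 (38.1 CPM at day 5) and Nkx2-1 (12.2 CPM) were present, Tshr was at 0 at day 5, and Slc5a5 and Tshr were at 0 at day 11. Summed thyroid markers ranged from 53.4 to 67.9 CPM at day 5 and from 96.8 to 135 CPM at day 11. Of that sum Duox2, an oxidase gene of thyroid hormone synthesis, made up 0.515 CPM at day 5 and 64.3 CPM at day 11 by its mean, while Foxe1, at 31.3 CPM at day 11, did not pass (edgeR adjusted p = 0.574). Of 6 tested, 3 were higher (Duox2, Nkx2-1 and Slc26a4) and none lower. The 8 epithelial markers, led by the basal keratins Krt5 and Krt14, summed to 12600 to 14910 CPM at day 5 and 5404 to 6948 CPM at day 11, with 4 higher and 3 lower.

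Dose took no part in the choice of the genes, so all 7 were tested within day 7. Gm94, Fabp4 and Fabp5 fell with dose, and no tubulin passed the test. Gm94 stood at 18.2, 21.6 and 10.2 CPM after 2 Gy, at 16.3, 7.78 and 13.1 CPM after 4 Gy and at 8.02, 8.22 and 10.4 CPM after 7 Gy, in the order mTG11, mTG12 and mTG14. The 7 Gy libraries all lay under the lowest unirradiated library. Fabp4 stood at 7.51, 14.8 and 8.03 CPM after 2 Gy, at 7.29, 7.38 and 7.70 CPM after 4 Gy and at 2.01, 5.91 and 7.18 CPM after 7 Gy. Its libraries at 4 and 7 Gy all lay under the lowest unirradiated library, and mTG11 at 7 Gy, with 8 counts, stood apart below the other two. Fabp5 stood at 379, 829 and 433 CPM after 2 Gy, at 354, 490 and 498 CPM after 4 Gy and at 199, 489 and 369 CPM after 7 Gy. Its groups at 4 and 7 Gy did not overlap with the unirradiated group, and mTG11 was again the lowest library at 7 Gy.

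As a linear term in dose, 3 of the 7 genes passed, all lower with dose, where 8.62% of 19346 genes passed. The log2 change per Gy was -0.17 for Gm94 (SE 0.045, edgeR adjusted p = 0.0231), -0.18 for Fabp4 (SE 0.047, edgeR adjusted p = 0.0217) and -0.17 for Fabp5 (SE 0.039, edgeR adjusted p = 0.0125). The trend of Gm94 no longer passed without mTG11 or mTG14 at 0 Gy or mTG11 or mTG12 at 7 Gy, with adjusted p between 0.0637 and 0.0867, and that of Fabp4 without mTG12 at 0 Gy (adjusted p = 0.0809) or mTG11 at 7 Gy (adjusted p = 0.0650). The trend of Fabp5 passed without any 1 of the 12 libraries (adjusted p at most 0.0474).

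Between single doses at day 7, 0 of 7 genes passed at 2 Gy (0.124% of genes tested) and 0 at 4 Gy (1.63%), with 1 and 3 genes at an unadjusted p under 0.05. DESeq2 also called 0 at both doses, and without a low-count filter edgeR called 2 and 4. With the culture as a replicate block, Fabp5 fell at 4 Gy (log2 fold change -0.89, adjusted p = 0.00343, edgeR, against 0.171 without it). At 7 Gy 1 of 7 genes passed, where 6.95% of genes did. This was Fabp5, with a log2 fold change of -1.20 (SE 0.30, edgeR adjusted p = 0.0267). That call was lost without mTG12 or mTG14 at 0 Gy or mTG11 or mTG14 at 7 Gy, with adjusted p between 0.0635 and 0.0923. Gm94 had a log2 fold change of -1.18 (SE 0.35, adjusted p = 0.0579) and Fabp4 of -1.24 (SE 0.36, adjusted p = 0.0529), both just short of the threshold in edgeR. With the replicate block they passed, with adjusted p of 0.0215 and 0.00835, so that 3 of 7 genes fell. Over the 8 alternative settings of the fit the adjusted p ranged from 7.63e-07 to 0.0586 for Gm94 and from 5.65e-05 to 0.0865 for Fabp4, and the log2 fold change from -1.18 to -1.15 and from -1.25 to -1.23. Gm94 passed in 5 of these 8 settings and Fabp4 in 4, the replicate block included.

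**Figure D3:**
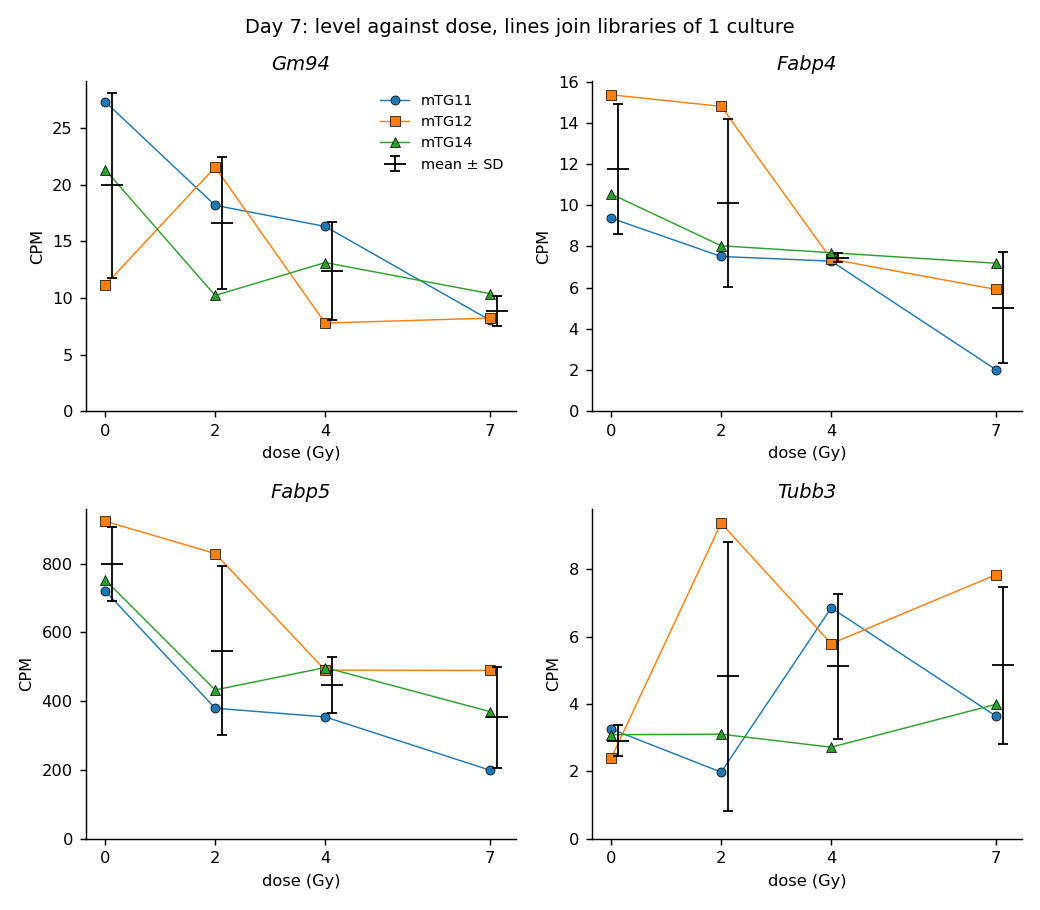
CPM of Gm94, Fabp4, Fabp5 and Tubb3 at day 7 against dose in Gy. Coloured points are libraries, lines join libraries of 1 culture, and black marks are the mean and SD of 3 libraries. Gm94, Fabp4 and Fabp5 were lowest at 7 Gy by their mean, and Tubb3 was not.

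Tubb3 at day 7 stood at 1.98, 9.37 and 3.10 CPM after 2 Gy, at 6.85, 5.79 and 2.72 CPM after 4 Gy and at 3.63, 7.84 and 3.99 CPM after 7 Gy, from 5 to 43 counts a library. Its 7 Gy libraries all lay above the unirradiated ones, with a log2 fold change of 0.80 that did not pass (SE 0.52, edgeR adjusted p = 0.407). Tubb2a, Tubb2b and Tubb6 had log2 fold changes of 0.33, 0.48 and 0.08 at 7 Gy, and none passed (adjusted p = 0.313, 0.342 and 0.888, edgeR). Tubb2b overlapped between 0 Gy and 7 Gy, and at 2 Gy and 4 Gy its lowest libraries, at 25.6 and 29.7 CPM, lay above the highest unirradiated one at 24.9 CPM. In the list of β-tubulins, which includes Tubb3, Tubb2a, Tubb2b and Tubb6, 0 of 6 tested genes passed at 7 Gy. Their median log2 fold change was 0.23. In the list of α-tubulins 0 of 5 passed, with a median of -0.11. Of the adipocyte, endothelial, neuronal, macrophage and fibroblast markers none passed at 7 Gy, of 1, 4, 2, 6 and 10 tested. Adipocyte markers summed to 2.08 to 5.40 CPM at 0 Gy and 1.03 to 4.01 CPM at 7 Gy, and their part in the lower Fabp4 was not tested.

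At day 11 the chosen genes had few counts at any dose. Their unirradiated libraries of that day had part in the choice of the genes, so their day 11 values are a description, and any count lies above a group at 0. Gm94 had 0 counts in all libraries at 0 and 2 Gy, 2, 3 and 0 counts at 4 Gy and 2, 8 and 1 counts at 7 Gy. The 11 counts at 7 Gy made a level of 0.687 ± 0.653 CPM (SD of n = 3). Against the limit of 3 counts over the 0 Gy group that was 2.84-fold higher, with the counting error of the 11 counts left out. Without mTG12, which held 8 of the 11 counts, both groups were at or under that limit. Fabp4 had 0 counts in all 3 libraries at 0 Gy, 6, 1 and 12 at 2 Gy, 1, 2 and 2 at 4 Gy and 2, 2 and 0 at 7 Gy. Against the same limit over the 0 Gy group its 19 counts at 2 Gy were 6.20-fold more, with their counting error left out. Of these counts, 12 came from mTG14. Tubb3 had 1 count at 0 Gy, 0 at 2 Gy, 3 at 4 Gy and 4 at 7 Gy over 3 libraries each, and with under 10 counts in all it was not tested at day 11. The ratio of 7 Gy to 0 Gy for Tubb3 was 3.10 with a 95% counting interval of 0.306 to 152.

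Of the 6 genes tested at day 11, 0 passed at 2 Gy (0% of 19901 genes tested), 0 at 4 Gy (0.00502%) and 1 at 7 Gy (1.52%), with 2, 2 and 4 genes at an unadjusted p under 0.05. DESeq2 called 0, 0 and 1, and edgeR without a low-count filter called 2, 1 and 2. Gm94 and Fabp4 are among these 6, and nothing is read from their tests, since the unirradiated group was used in choosing them. The gene that passed was Tubb6, at 21.4, 25.9 and 22.5 CPM after 7 Gy against 13.1, 17.2 and 9.90 CPM, without overlap. Its log2 fold change was 0.76 (SE 0.17, edgeR adjusted p = 0.0434). The call was lost in each of 5 fits without 1 library, those without mTG11 or mTG14 at 0 Gy or any library at 7 Gy, and when only the groups compared were fitted (adjusted p between 0.0738 and 0.144 over these). Fabp5 stood at 109, 255 and 170 CPM after 7 Gy, which overlapped with 0 Gy, and its log2 fold change of 1.29 did not pass (SE 0.49, edgeR adjusted p = 0.228). Within each culture Fabp5 was higher at 7 Gy than at 0 Gy, and with the replicate block it passed (log2 fold change 1.33, adjusted p = 0.00169, edgeR). Over the 8 alternative settings the adjusted p ranged from 8.76e-21 to 0.352. Fabp5 passed in 2 of these settings, the replicate block included, and did not pass in the other 6.

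As a linear term in dose at day 11, 0 of 6 genes passed, where 2.51% of genes did. There were 4 at an unadjusted p under 0.05, Gm94 among them, and 0 called by DESeq2. Nothing is read from the trends of Gm94 and Fabp4, since the unirradiated group was used in choosing them. The log2 change per Gy of Fabp5 was 0.20 (SE 0.062, edgeR adjusted p = 0.0983), and with the replicate block it passed at 0.21 (adjusted p = 0.00126, edgeR, range over 7 alternative settings 0.00126 to 0.138).

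The response of Fabp5 to 7 Gy thus had opposite signs at the 2 days, and that difference was tested for the 4 related genes in 1 fit of the 24 libraries of days 7 and 11. It passed for 1 of 4, where 3.02% of genes did. The response of Fabp5 at day 11 exceeded that at day 7 by 2.52 on the log2 scale (SE 0.62, edgeR adjusted p = 0.0231). The call was lost without mTG11 at 7 Gy of day 7, mTG11 or mTG14 at 0 Gy of day 11 or mTG12 at 7 Gy of day 11, with adjusted p between 0.0685 and 0.0941 and a difference of 2.18 to 2.39. Tubb2a, Tubb2b and Tubb6 had differences of 0.05, 0.21 and 0.71, and none passed (adjusted p = 0.990, 0.886 and 0.319, edgeR).

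**Figure D4:**
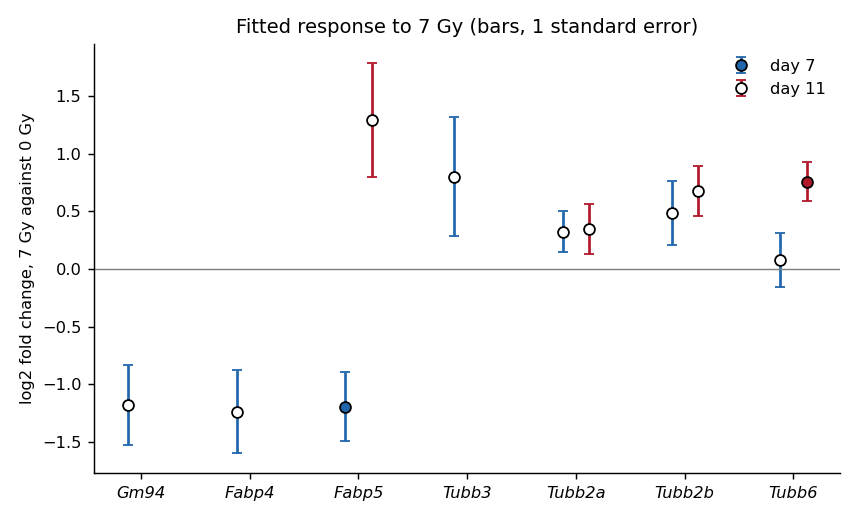
Fitted log2 fold change of 7 Gy against 0 Gy at day 7 and day 11, with bars of 1 standard error. Filled points had an adjusted p under 0.05 in edgeR, and Gm94, Fabp4 and Tubb3 are left out at day 11 because their unirradiated libraries held 0 or 1 count. Fabp5 lay below 0 at day 7 and above 0 at day 11, and Tubb2a, Tubb2b and Tubb6 lay above 0 at both days.

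Gm94, Fabp4 and Tubb3 were also lower at day 11 than at day 7 at each dose, a comparison that belongs to the days and is given without a test. Day 7 was at least 69.1-fold higher than day 11 for Gm94 at 2 Gy, 28.0-fold higher at 4 Gy (95% counting interval 11.7 to 87.5) and 12.0-fold higher at 7 Gy (6.45 to 24.8). For Fabp4 the ratios were 6.87 (4.20 to 11.9) at 2 Gy, 17.6 (7.27 to 55.3) at 4 Gy and 18.6 (6.89 to 70.6) at 7 Gy. For Tubb3 day 7 was at least 22.4-fold higher at 2 Gy, and the ratio was 19.5 (6.39 to 97.2) at 4 Gy and 19.3 (7.14 to 73.0) at 7 Gy. The ratio of Fabp5 was 11.4 at 0 Gy, 9.16 at 2 Gy, 4.07 at 4 Gy and 1.97 at 7 Gy.

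The pattern of each chosen gene over all 27 libraries was compared with that of the 15361 other genes with at least 100 counts, as Pearson's r of log2(CPM + 1) with TMM factors. The libraries share the steps between days and 3 cultures, so these values describe and carry no p. Gm94 was most like Lce3d (r = 0.98), a late cornified envelope gene, followed by Nfe2l2, Slc25a5, Dsg1a and Atp5g3 (r of 0.97 to 0.98). Without irradiation Lce3d averaged 47.8, 16.7 and 0.107 CPM over days 5, 7 and 11, and Dsg1a, a desmosomal cadherin gene, 33.5, 7.75 and 0.0894 CPM. Fabp4 was most like Txn1 (r = 0.95), which encodes thioredoxin, followed by Lce3d, Elovl4, Sgpp2 and Nfe2l2 (r of 0.94 each), and Gm94 ranked 6 (r = 0.93). Elovl4, an elongase of very long fatty acids, stood at 92.0, 33.3 and 3.92 CPM over the 3 days. Tubb3 was most like Degs1 (r = 0.97), a desaturase gene of ceramide synthesis, followed by Pdap1, Ranbp1, Atp5g1 and Mrpl12 (r of 0.96 each). Degs1 stood at 147, 70.5 and 48.0 CPM over the 3 days and kept counts to day 11, since r reads the shape of a pattern and not the size of its steps.

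Within the 12 day 7 libraries alone, Fabp4 and Fabp5 had r = 0.91, and Tubb3 had r = 0.76, 0.78 and 0.71 with Tubb2a, Tubb2b and Tubb6. In the same libraries r was 0.54 between Gm94 and Fabp4, -0.11 between Gm94 and Tubb3 and -0.01 between Fabp4 and Tubb3, against 0.93, 0.95 and 0.87 over all 27 libraries. The 12 libraries share 4 doses and 3 cultures, and mTG12 at 2 Gy was the highest library of that dose for all 7 genes.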

How the data were processed

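RNA of 27 mTGO libraries was measured with Smart3SEQ as 75-base single reads. Per the labels and the study's methods, the authors aligned them to GRCm39, and the submitters' processing notes name STAR and edgeR. The authors deposited estimated counts per gene symbol for 50559 genes, without normalization, and 56.3% of the nonzero values were whole. The counting tool, annotation, use of strand and handling of molecular identifiers are not given in the sources used here. Fractions and reads shared between overlapping or similar genes can move counts of the related genes.

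All 27 columns were placed in groups by the day and dose in their names. CPM was computed from library totals (2528866 to 5723150). For tests the estimated counts were rounded, because the count test needs whole numbers, and genes with at least 10 counts over the libraries of a fit were tested with edgeR 4.0.16 in R 4.3.3 (TMM, quasi-likelihood test, Benjamini-Hochberg adjustment at 0.05). The standard error was the log2 fold change divided by the square root of F. There was 1 fit of the 9 unirradiated libraries, 1 of 12 libraries for each of days 7 and 11, and 1 of 24 libraries for the difference between these days. Ratios of counts have exact conditional 95% intervals (scipy 1.17.1, Python 3.11.15). The main edgeR fits, apart from the dose trend at day 11, were tried on simulated data with a single contrast each. The other analyses were not. Over 27 pairs of replicates the lowest chi-square for each degree of freedom was 3.63, and none was treated as a repeat of another.

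Column names hold the culture identifier, which gave the pairing. Deviations from the group means were alike within a culture, with a correlation over 0.1 in 9 of 9 pairs across days, 18 of 18 at day 7 and 18 of 18 at day 11 (107 of 108 over all libraries). The fit without the replicate block is the one reported, and blocked values stand beside results whose call they change. The p-values measure the spread between libraries, which within a group the labels assign to separate animals. The columns carry the same 3 culture identifiers in every group, so libraries of different groups are not independent. The reported fit treats them as if they were.

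The alternatives were DESeq2 1.42.0, no TMM factors, RLE size factors, other low-count filters, the replicate block, unrounded values, only the groups compared, a pseudocount of 0.25, Spearman correlation and leaving out each library in turn. The members and lists were chosen with earlier results of these data known. Named genes were the 7 members, the 5 genes most like each of Gm94, Fabp4 and Tubb3, and from each list up to 3 with the highest mean CPM and up to 2 with the largest change among those that passed for day 11 against day 5. Other marker genes were named to say which were at 0. The values of some listed genes are not reported here.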

Additional observations from a re-analysis of the deposited data

Results flagged for a closer look

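The response of Fabp5 to 7 Gy differed between days 7 and 11 by 2.52 on the log2 scale, a difference that passed the test of the interaction in edgeR (adjusted p = 0.0231). Fabp5 was lower at 7 Gy than at 0 Gy at day 7 in 3 of 3 cultures and higher at day 11 in 3 of 3.

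Gm94 at 7 Gy minus 0 Gy was -11.1 CPM by group means at day 7, with every 7 Gy library below every unirradiated one, and 0.687 CPM at day 11, against unirradiated libraries at 0. Those zeros had part in the choice of Gm94, so any count lies above them, and the 7 Gy libraries held 2, 8 and 1 counts. This difference between days was not tested.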

How the results depend on the processing

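Day 11 had too few counts of Gm94, Fabp4 and Tubb3 to show a difference of a few counts per library, and fractional counts limit the related genes. Counts of called genes moved by over 1.5 times as follows. Without a low-count filter edgeR called 2 genes at 2 Gy, 4 at 4 Gy and 4 at 7 Gy at day 7, 2 at 2 Gy, 1 at 4 Gy and 2 at 7 Gy at day 11, 1 for the dose trend at day 11 and 2 for the difference between days. With the replicate block it called 1 at 4 Gy and 3 at 7 Gy at day 7, 2 at 7 Gy at day 11 and 2 for the trend at day 11. With the groups compared alone it called 1 at 4 Gy and 2 at 7 Gy at day 7 and 0 at 7 Gy at day 11. At 7 Gy of day 7 DESeq2 and filterByExpr each called 3. The cause was not tested. Counts at day 11 include Gm94 and Fabp4, from whose tests nothing is read, since their unirradiated values had part in the choice.

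Leaving out 1 library gave 1 to 3 related genes for day 7 against day 5 (1 without mTG14 of either day) and 4 for both day 11 comparisons. At day 7 it gave 0 genes at 2 and 4 Gy, 0 to 1 at 7 Gy (0 without mTG14 at 0 Gy or mTG11 at 7 Gy) and 1 to 3 for the trend (1 without mTG11 at 7 Gy). At day 11 it gave 0 genes at 2 and 4 Gy, 0 to 1 at 7 Gy (0 without mTG11 or mTG14 at 0 Gy or any 7 Gy library) and 0 to 1 for the trend (1 without mTG12 at 4 Gy or mTG11 at 7 Gy). The difference between days gave 0 to 1 (0 without mTG11 at 7 Gy of day 7, mTG11 or mTG14 at 0 Gy or mTG12 at 7 Gy of day 11).

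The dose trend of Tubb6 at day 7 (0.000443 per Gy) changed sign without a filter (-0.000195), with the replicate block (-0.00142) and with unrounded values (-0.000751), and ranged from -0.0184 to 0.0320 without 1 library. Sign changes without 1 library also occurred for Tubb6 at 7 Gy of day 7 (-0.071 to 0.25), the trend of Fabp4 at day 11 (-0.19 to 0.053) and the difference between days of Tubb2a (-0.12 to 0.26). Of 310 single-gene fold changes under other settings, 290 kept direction and call, 16 passed where they had not, 1 no longer passed and 3 changed sign. No TMM factors moved the median log2 fold change of all genes by -0.14 for both comparisons with day 5, and the share of calls that were higher from 55.5% to 35.9% (day 7 against day 5), 51.5% to 39.9% (day 11 against day 5) and 69.5% to 79.6% (7 Gy at day 11). For r between Gm94, Fabp4 and Tubb3 a pseudocount of 0.25 gave 0.86 to 0.95 and Spearman's rho 0.77 to 0.89. TMM factors moved mean CPM by over 1 SD for Tubb3 at day 5 (68.1) and Tubb2a at day 11 (21.4). For the 7 genes the replicate block changed no call other than those given, apart from the trend of Gm94 at day 11. Nothing is read from that trend or from that of Fabp4 at day 11, for the reason given above. Calls of other listed genes were not compared under the replicate block.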
